A study of Mus musculus with 2 samples.

Results

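The genes described here are 33 genes of the interferon response and of antigen presentation on class I molecules, taken by symbol from a fixed list, out of 55536 annotated genes of which 22028 are protein-coding. All 33 were found in the deposited tables, and 32 are annotated as protein-coding, while Mx2 is annotated as a polymorphic pseudogene. They fall into 7 antigen presentation genes, 3 membrane restriction factors, 5 regulators, 4 interferon-induced GTPases and 14 antiviral effectors. Levels come from total RNA-seq of whole heart in male B6CASTF1/J mice, a first-generation cross of B6 with the wild-derived strain CAST, at 10 days of age. There were 2 libraries of 1 group, each made from 300 ng of RNA with ERCC spike-in controls, with no treatment, infection or other genotype to compare. They are called replicate 1 and replicate 2 after their labels, which number the males separately but point to the same donor record, so their spread may be partly technical. Expected counts summed to 38851514 for replicate 1 and to 37907585 for replicate 2, and every SD below is over these 2 libraries (n = 2).

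Interferons are secreted proteins that cells release when they sense viral nucleic acid. Type I interferons signal through Jak kinases to a complex that holds Stat2 and Irf9 and binds the interferon-stimulated response element (ISRE), while interferon gamma acts at the gamma-activated site (GAS) and induces Irf1. The target genes block viral entry and replication, and they raise the machinery that cuts proteins into peptides, carries the peptides into the endoplasmic reticulum and shows them on class I molecules. Without infection this programme runs at a low, tonic level in many tissues, while class I presentation is a standing function of most nucleated cells.

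Tissue markers matched the label: the summed level of 6 cardiomyocyte markers was 23362 TPM (a level corrected for transcript length and library depth) in replicate 1 and 21502 in replicate 2. The libraries stood apart in the RNA of markers of other tissue. Summed adipocyte markers were at 419.92 TPM in replicate 1 and 31.24 in replicate 2, and summed atrial markers at 1504.31 and 269.13 TPM. In whole tissue, fewer cells of a type and less RNA per cell cannot be told apart.

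The promoters show which members carry the binding letters of these factors. RefSeq promoters on the GRCm38.p6 build, from 250 bases before to 50 bases after a start, were found for 27 of the 33 members, in 32 promoters. Mx1, Mx2, Nlrc5, Tap2, Usp18 and Zbp1 had no entry. The ISRE core was searched as GAAANNGAAA on both strands and the GAS as TTCNNNGAA, which reads the same on both, with overlapping matches kept. The ISRE core stood in 15 of the 32 member promoters (46.9%), 1 in each of 15 genes, against 3.44% of all 32851 promoters in the table. The GAS stood in 9 of 32 (28.1%), also in as many genes, against 8.30% of all promoters. Both stood in the same promoter of 5 members, and 8 members had neither. The stretches below were chosen to put the same letters beside genes at very different levels, from Ifitm2 and B2m, among the most abundant members, to Isg15 and Ifit1, both under 1 TPM. Capitals mark the motif matches, and each stretch is read 5′ to 3′ on the strand of its gene.
Ifitm2, ISRE core (chr7:140955990-140956015, minus strand): accaacagGAAAAGGAAAttgctaga
B2m, ISRE core (chr2:122147540-122147565, plus strand): aagaacatGAAACTGAAAatgggaaa
Bst2, GAS running into 2 ISRE cores (chr8:71537579-71537616, minus strand): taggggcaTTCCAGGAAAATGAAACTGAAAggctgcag
Irf1, GAS (chr11:53769916-53769940, plus strand): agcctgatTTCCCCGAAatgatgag
Psmb8, GAS (chr17:34198090-34198114, plus strand): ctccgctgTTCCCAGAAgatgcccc
Rsad2, ISRE core on the other strand (chr12:26456555-26456580, minus strand): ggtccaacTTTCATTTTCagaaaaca
Igtp, GAS and ISRE core (chr11:58199503-58199539, plus strand): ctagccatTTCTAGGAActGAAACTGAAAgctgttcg
Isg15, 3 overlapping ISRE cores (chr4:156200867-156200904, minus strand): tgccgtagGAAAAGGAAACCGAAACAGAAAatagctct
Ifit1, 2 ISRE cores on the other strand (chr19:34640777-34640821, plus strand): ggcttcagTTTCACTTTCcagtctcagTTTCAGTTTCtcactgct
A match is a description of the letters and not a measured binding site. Members with an ISRE core had a median of 2.99 TPM over 15 genes, from 0.045 to 59.8, and members without it had 3.24 TPM over 12 genes, from 0.065 to 25.3. The ranges overlapped along most of their length.

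At 1 TPM or more in both libraries, 21 of the 33 members were detected, against 22.9% of all annotated genes and 52.4% of protein-coding genes. Replicate 1 alone gave 22 members and replicate 2 alone 21. The median over all 33 members, 12 of them undetected, stood at 2.72 TPM in replicate 1 and 2.56 in replicate 2 (mean 2.64 ± 0.113 SD). The median of protein-coding genes was 11.1 and 9.59 TPM, but over detected genes only, so the 2 medians are not like for like. The signal was concentrated: the 5 most abundant members, Ifitm2, B2m, Ifitm3, H2-D1 and H2-K1, held 77.1% of the summed member TPM in replicate 1 and 72.7% in replicate 2. All 7 antigen presentation genes, all 3 membrane restriction factors and all 4 GTPases were detected, with 3 of 5 regulators and 4 of 14 antiviral effectors.

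**Figure D1:**
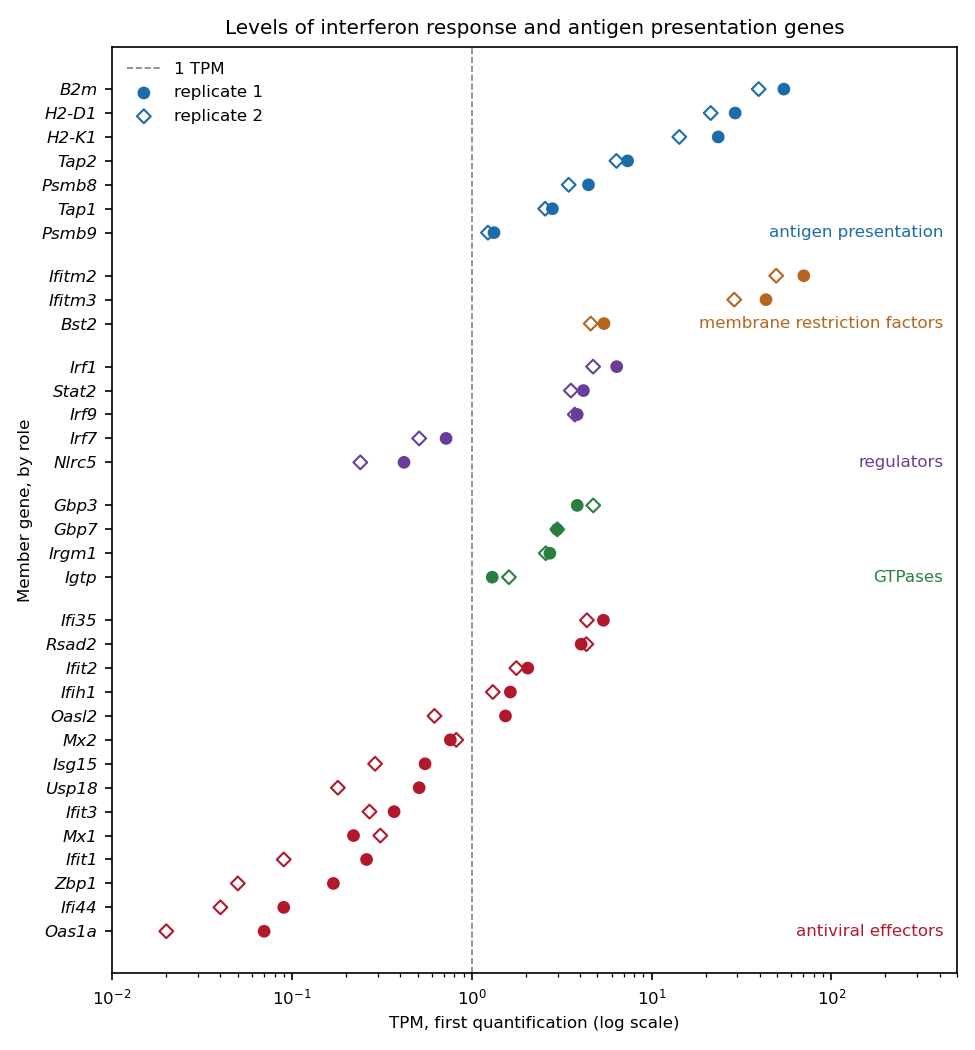
Level of each of the 33 members in TPM on a log axis, grouped by role, with filled circles for replicate 1, open diamonds for replicate 2 and a dashed line at 1 TPM. Ifitm2, B2m, Ifitm3, H2-D1 and H2-K1 stand to the right in both libraries, and 10 of the 14 antiviral effectors lie left of the line in at least 1 library.

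Among the antigen presentation genes, B2m was the most abundant. It lies at chr2:122147686-122153083 on the plus strand (mm10) and encodes beta-2 microglobulin, the light chain that every class I molecule needs. B2m stood at 54.46 TPM in replicate 1 and 39.42 in replicate 2 (46.9 ± 10.6 SD), above 87.9% of detected protein-coding genes. H2-D1 and H2-K1, both on chromosome 17, encode the classical heavy chains that hold the peptide. H2-D1 stood at 29.18 and 21.33 TPM, and H2-K1 at 23.49 and 14.27 TPM. B2m thus exceeded each heavy chain in both libraries, 1.87-fold and 1.85-fold over H2-D1 and 2.32-fold and 2.76-fold over H2-K1. Reads of the chains are harder to place than those of B2m. Of their 31-base words, 26.7% for H2-D1 and 22.8% for H2-K1 also occur in other annotated genes, against none for B2m. Coding transcripts of H2-K1 alone were at 10.96 TPM in replicate 1 and 7.90 in replicate 2. In the other quantification, described below, they were at 21.8 and 16.5 TPM. The effect of any loss of CAST reads on these ratios was not tested. As every class I molecule needs B2m, a ratio to 1 chain does not show an excess over the chains together.

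The peptide supply genes were lower than the chains they serve. Tap1 and Tap2 encode the transporter that carries peptides into the endoplasmic reticulum and need each other to work. Tap2 was at 7.36 TPM in replicate 1 and 6.38 in replicate 2, and Tap1 at 2.81 and 2.56, a Tap2 excess of 2.62-fold and 2.49-fold that rests on transcripts described below. Psmb8 and Psmb9 encode the inducible proteasome subunits that replace Psmb5 and Psmb6 and change where proteins are cut. Psmb8 was at 4.46 and 3.46 TPM and Psmb9 at 1.33 and 1.23. Their constitutive partners were far higher in both libraries: Psmb5 exceeded Psmb8 19.4-fold and 19.2-fold, and Psmb6 exceeded Psmb9 83.7-fold and 78.6-fold. In the authors' other quantification, described below, the ratios were 19.1 and 14.8 for Psmb5 and 71.0 and 59.5 for Psmb6. Psmb9 rests on only 40 and 38 counts. For the inducible subunit Psmb10 the distance was smaller, with Psmb7, which it replaces, higher 3.17-fold and 3.77-fold. The 4 peptide supply members are neighbours within the class II region of chromosome 17, with Psmb9 at 34181987-34187764 on the minus strand, then Tap1, Psmb8 and Tap2 on the plus strand up to base 34216321. Tap1 and Psmb9 share 212 exon bases on opposite strands, 5.79% of the exon bases of Psmb9, and whether reads were counted by strand is not given in the sources used here.

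Other genes of the same pathway came from lists of class I loading and proteasome genes and of other class I genes. All 15 loading and proteasome genes were detected, led by Psmb6 at 111.30 TPM in replicate 1 and 96.73 in replicate 2, Canx, a chaperone of new class I chains, at 112.71 and 92.39, and Psmb7 at 107.30 and 92.81. Only 6 of 22 annotated other class I genes were detected, led by Fcgrt, the neonatal Fc receptor, at 28.89 and 21.94 TPM, Cd1d1, which presents lipids, at 8.65 and 5.61, and H2-T23, which presents leader peptides to natural killer cells, at 6.93 and 6.13. Fcgrt lay close to H2-D1 in both libraries, and the next gene, Cd1d1, lay below both classical chains. Class II presentation, a function of professional antigen-presenting cells, was low: 5 of 11 genes were detected. Its invariant chain Cd74 was at 7.29 and 3.49 TPM, and its transactivator Ciita at 0.07 and 0.08 TPM.

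The membrane restriction factors held the most abundant member. Ifitm2 and Ifitm3, which sit in endosomal membranes and hinder fusion of incoming virus, lie on the minus strand of chromosome 7. Ifitm2 was at 70.32 TPM in replicate 1 and 49.35 in replicate 2 (59.8 ± 14.8 SD), above 90.8% of detected protein-coding genes. Ifitm3 was at 43.31 and 28.84 TPM, so Ifitm2 exceeded it 1.62-fold and 1.71-fold. Ifitm2 is a gene whose reads are hard to place, since 55.5% of its 31-base words also occur in other annotated genes, the most in Gm45717, which overlaps 268 of its exon bases on the same strand and was assigned 0 counts. Of the 31-base words of Ifitm3, 20.5% occur in other genes. Bst2, which tethers budding virus to the cell surface, was at 5.44 and 4.59 TPM, and none of its 31-base words occurred elsewhere.

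Of the 5 regulators, 3 were detected. Irf1, a transcription factor of class I and other interferon gamma targets, was at 6.40 TPM in replicate 1 and 4.73 in replicate 2. Stat2 was at 4.18 and 3.56 TPM and Irf9, which joins it in the type I complex, at 3.86 and 3.74. Irf7, which amplifies type I interferon production, stayed under 1 TPM, at 0.72 and 0.51 (34 and 24 counts). Nlrc5, the transactivator of class I genes, was at 0.42 and 0.24 TPM (28 and 16 counts). In both libraries these last regulators lay well below the other 3.

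Upstream of the regulators, ligand and receptor genes differed sharply. Of 21 interferon ligand genes, 20 had no count in either library in the first quantification, where a count of 0 allows up to 3 counts, and Ifnz had 1.56 and 3.43 counts. In the other, Ifnz had 1.81 and 0 counts and Ifna16 had 1.56 and 3.16, so the gene that holds these few reads depends on the method. Of 14 receptor and signalling genes, 13 were detected, led by Ifngr2, a chain of the interferon gamma receptor, at 48.28 TPM in replicate 1 and 47.05 in replicate 2. Il10rb, shared by the receptors of interferon lambda and interleukin 10, was at 34.53 and 35.37 TPM, and the kinase Jak1 at 37.39 and 29.68. The median of the receptor and signalling genes was 11.2 TPM, above that of the members, beside almost no ligand RNA. Of 14 annotated nucleic acid sensing genes, 10 were detected, led by the adaptor Mavs at 16.52 and 13.61 TPM, the factor Irf3 at 14.26 and 13.38 and the ubiquitin ligase Trim25 at 13.72 and 12.97.

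All 4 GTPase members were detected at low levels. Gbp3 and Gbp7 are guanylate-binding proteins that coat the vacuoles of intracellular microbes, and they neighbour each other on chromosome 3. Gbp3 was at 3.86 TPM in replicate 1 and 4.74 in replicate 2, and Gbp7 at 2.98 and 2.99. Irgm1 and Igtp, both on chromosome 11, are immunity-related GTPases of the same defence. Irgm1 was at 2.72 and 2.58 TPM and Igtp at 1.30 and 1.61. Igtp shares 15.9% of its 31-base words with other genes, all of them with Irgm2, which overlaps 162 of its exon bases. From the list of further interferon-induced GTPases, 5 of 14 were detected, led by Gbp9 at 4.26 and 4.45 TPM, Gbp2 at 3.05 and 2.40 and Gbp4 at 2.86 and 2.27. The median of that list was 0.25 TPM and that of the 4 members 2.82 TPM.

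In the first quantification the antiviral effectors split into 4 detected and 10 undetected genes. Ifi35, a binding partner of the regulator Nmi, was at 5.40 TPM in replicate 1 and 4.37 in replicate 2. Rsad2 (viperin), an enzyme that makes a chain-terminating nucleotide, was at 4.06 and 4.34 TPM. Ifit2, which binds RNA, was at 2.05 and 1.77 TPM, and Ifih1, the cytosolic sensor of long double-stranded RNA also known as Mda5, was at 1.64 and 1.31. These levels rest on 155 to 421 counts per gene and library.

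The 10 undetected effectors include the genes most often read as markers of an interferon response. Oasl2, a relative of the oligoadenylate synthetases, passed 1 TPM in 1 library, at 1.54 TPM (60 counts) in replicate 1 and 0.62 (33 counts) in replicate 2. The dynamin-like GTPase Mx2 was at 0.76 and 0.82 TPM, and Mx1 at 0.22 and 0.31. Isg15, a ubiquitin-like modifier, was at 0.55 and 0.29 TPM (11 and 6 counts), and Usp18, which removes Isg15 and restrains the type I receptor, at 0.51 and 0.18 (18 and 6 counts). These values lay below every detected effector of the same library. In the other quantification Mx2 was at 1.18 TPM in replicate 1 and 1.09 in replicate 2, and so passed 1 TPM in both.

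Ifit3, a partner of the RNA-binding Ifit1, was at 0.37 TPM in replicate 1 and 0.27 in replicate 2, and Ifit1 at 0.26 and 0.09 (20 and 7.24 counts). Zbp1, a sensor of Z-form nucleic acid, was at 0.17 and 0.05 TPM (6 and 1 counts). Ifi44 was at 0.09 and 0.04 TPM (7 and 4 counts), and Oas1a, an oligoadenylate synthetase, at 0.07 and 0.02 (3.72 and 1.13 counts). The lowest of these rest on a handful of reads, and 68.8% of the 31-base words of Oas1a and 61.8% of those of Ifit3 occur in other genes, chiefly Oas1g and Ifit3b. Isg15 and Ifit1, at these levels, carry the several ISRE cores printed above, while Ifit2, with no ISRE core in its promoter window, lies near Ifit3 on chromosome 19 and was the most abundant of the 3 Ifit members.

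Among 39 other interferon-induced antiviral genes, 17 were detected. Ifi27 was the most abundant at 63.93 TPM in replicate 1 and 17.27 in replicate 2, followed by Lgals3bp at 13.24 and 7.71 and Samhd1, which depletes nucleotides, at 8.55 and 7.56. Ifi27 was also the only gene of the 8 other interferon and antigen presentation lists over 2-fold between the libraries, with 1106 and 299 counts and a log2 ratio of −1.74 (95% interval −1.93 to −1.56).

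The libraries were compared gene by gene as the log2 ratio of replicate 2 over replicate 1, from counts scaled by TMM factors, with exact 95% intervals (Clopper-Pearson) that cover counting error only. With 2 libraries of 1 group there is no test between them. No member was over 2-fold among the 20 with a mean count of at least 50, where 1.79% of all such genes were. With the minimum lowered to 10 counts, 2 members of 29 passed, Usp18 and Ifit1, against 3.9% of all genes, and both rest on 20 counts or fewer in each library.

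Smaller differences were common. Of the 20 members, 6 were lower in replicate 2 with an interval that left out a ratio of 1, against 20.6% of all genes, and 2 were higher, against 22.3% of all genes, so differences of this kind were frequent throughout the libraries. The 6 lower members were H2-K1 at −0.38 (−0.55 to −0.20), Ifitm3 at −0.36 (−0.52 to −0.20), Ifitm2 at −0.29 (−0.41 to −0.16), Irf1 at −0.25 (−0.48 to −0.01), B2m at −0.24 (−0.36 to −0.12) and H2-D1 at −0.23 (−0.34 to −0.12). They hold the 5 most abundant members, for which counts are high and intervals narrow. Igtp and Rsad2 were the 2 higher members, Igtp at 0.56 (0.11 to 1.02) from 73.51 and 99.04 counts and Rsad2 at 0.35 (0.15 to 0.56) from 364 and 421 counts. The same 6 and the same 2 genes kept their direction with an interval leaving out 1 under each of the 3 other scalings and in the other quantification.

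**Figure D2:**
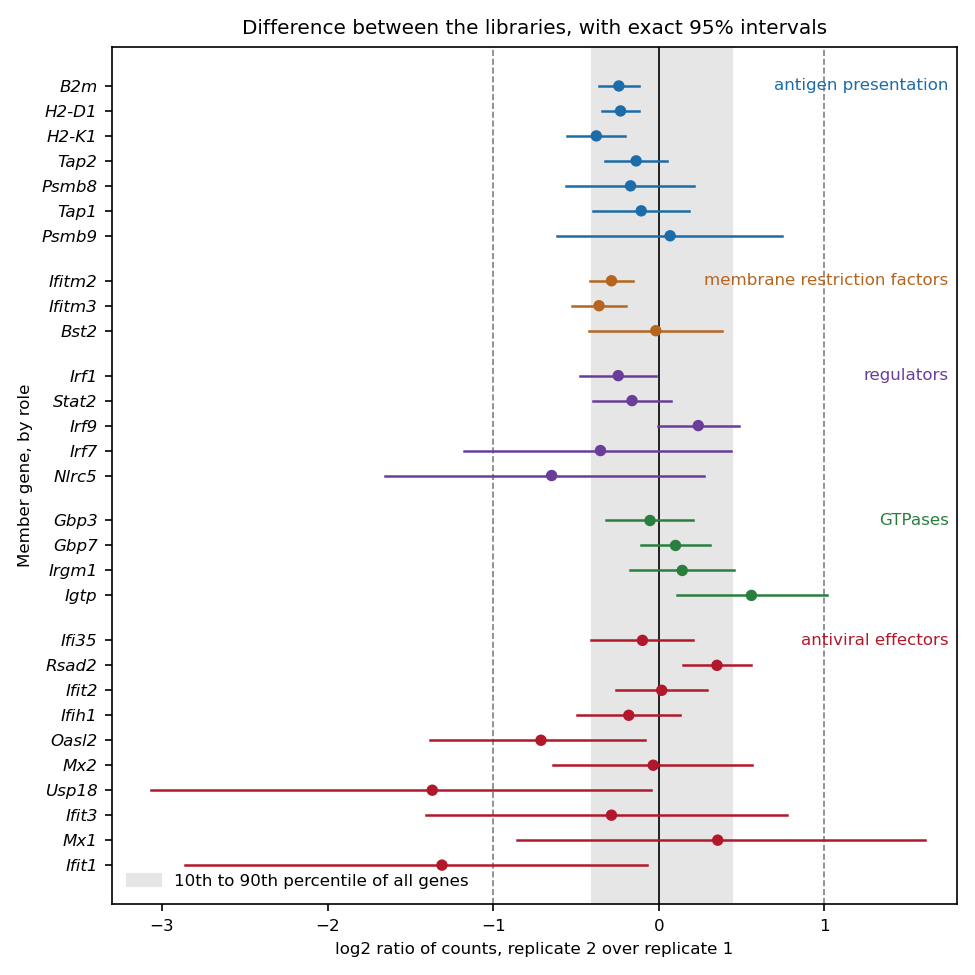
Log2 ratio of counts, replicate 2 over replicate 1, for the 29 members averaging 10 or more counts, with exact 95% intervals as lines, dashed lines at 2-fold and a grey band from the 10th to the 90th percentile of all genes. The class I chains and Ifitm genes lie just left of 0 with narrow intervals, Igtp and Rsad2 lie right of 0, and Usp18 and Ifit1 lie beyond −1 with wide intervals.

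Over the 29 members averaging 10 or more counts, 21 had a ratio below 1 (72.4%), against 48.1% of all genes. Their median log2 ratio was −0.16, beside 0.01 for all genes, whose 25th percentile was −0.15. By role, the ratio was below 1 for 6 of 7 antigen presentation genes (median −0.17), 3 of 3 membrane restriction factors (−0.29), 4 of 5 regulators (−0.25) and 7 of 10 antiviral effectors (−0.14). Under total counts, spike-in totals and the other quantification Psmb9 was also below 1, giving 7 of 7 antigen presentation genes. The GTPases had the other sign, with 1 of 4 below 1 and a median of 0.12. This median shrank to 0.01 with 2 of 4 below 1 when the libraries were scaled by total counts. Of the 4 GTPases only Igtp had an interval that left out 1. Summed over a role, the log2 ratio was −0.23 (−0.30 to −0.17) for antigen presentation and −0.30 (−0.39 to −0.20) for membrane restriction. It was −0.09 (−0.22 to 0.04) for regulators, 0.01 (−0.11 to 0.13) for antiviral effectors and 0.11 (−0.02 to 0.25) for GTPases. These last intervals include no difference. The antigen presentation sum rests mostly on B2m, H2-D1 and H2-K1, and the membrane restriction sum on Ifitm2 and Ifitm3. Every other member of these roles had an interval that includes a ratio of 1. Rsad2, which was higher in replicate 2, gave 364 of the 1191 antiviral effector counts in replicate 1 and 421 of 1085 in replicate 2.

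Markers of some other cells were also lower in replicate 2. Of 10 macrophage markers, 9 had a ratio below 1 (median −0.42), and their summed level was 74.83 TPM in replicate 1 and 47.16 in replicate 2. Of 7 fibroblast markers, 6 were below 1 (median −0.35), with 1737.30 and 1098.07 TPM in sum, and of 7 endothelial markers 6 were below 1 (median −0.06), with 519.23 and 421.80 TPM. Of 5 mesothelial markers 4 were below 1 (median −0.87), as were 6 of 7 lymphocyte markers with at least 10 counts (median −0.31). Others were not: 1 of 6 cardiomyocyte markers was below 1 (median 0.18), as were 3 of 6 mural markers (median 0.01). Of 4 red blood cell markers 0 were below 1 (median 0.23). The immune lists were small in sum: the 8 lymphocyte markers reached 5.90 and 4.15 TPM, and the 5 dendritic markers 0.45 and 0.36 TPM, with Siglech and Xcr1 at 0 in replicate 2. Of 8 class II genes with at least 10 counts, which macrophages and dendritic cells express, 4 were below 1, among them Cd74 at −0.79 (−1.11 to −0.48) and H2-Eb1 at −0.80 (−1.35 to −0.29), and the other 4, H2-DMa, H2-DMb2, H2-Ob and Ciita, were above 1. The part of these cells, and of any adipose and atrial tissue, in the members' ratios was not tested. Other lists of the pathway had medians closer to 0 than most roles. The median was 0.02 for receptors and signalling (6 of 14 below 1) and 0.03 for nucleic acid sensing (6 of 14). It was 0.03 for other antiviral genes (15 of 32) and −0.04 for class I loading and proteasome (10 of 15). Other class I genes were at −0.08 (7 of 12), as were the further interferon-induced GTPases (5 of 8).

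**Figure D3:**
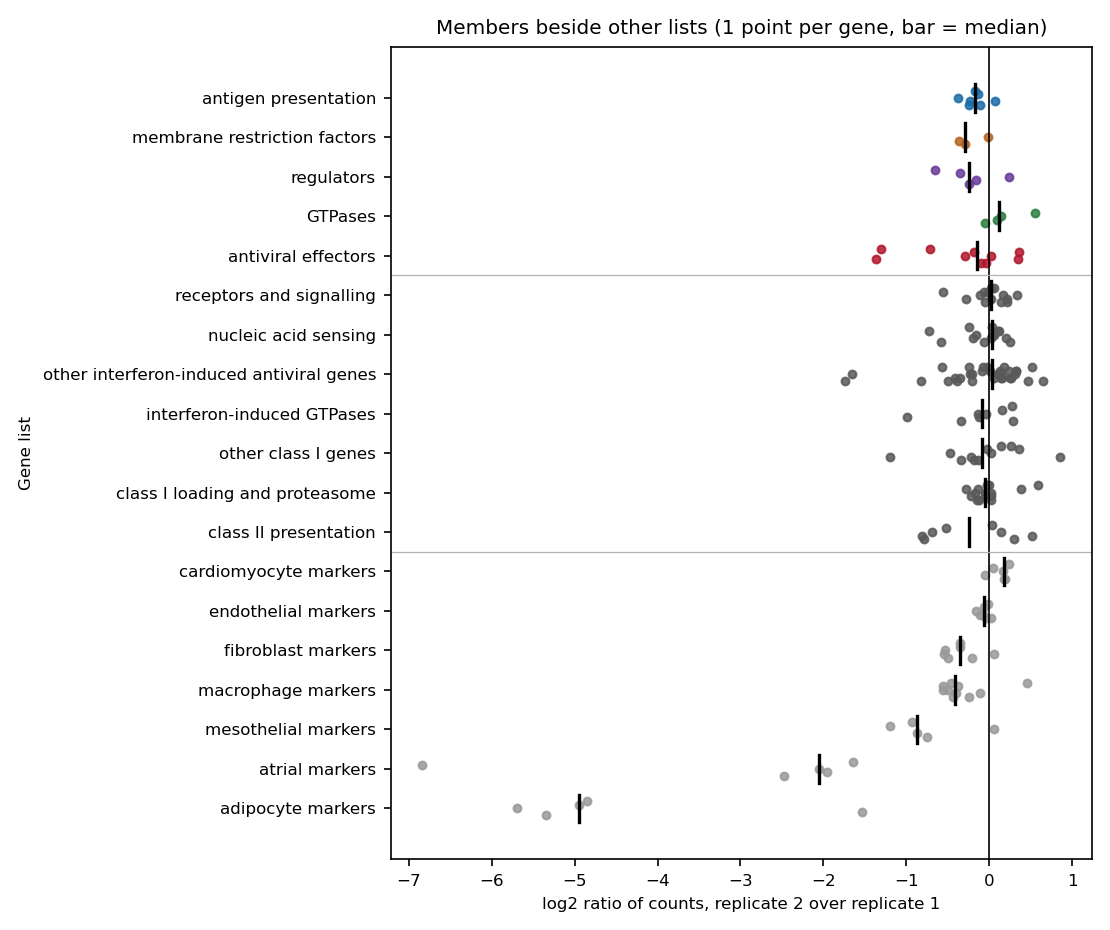
Log2 ratio of counts, replicate 2 over replicate 1, with 1 point per gene of at least 10 mean counts and a bar at the median of each list: members by role at the top, other interferon and antigen presentation lists in the middle and cell type markers below. The member medians lie between −0.29 and 0.12, the fibroblast and macrophage medians at −0.35 and −0.42, and the atrial and adipocyte medians at −2.05 and −4.95.

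Each library was also quantified by the authors directly from reads. Both quantifications use the same reads, so they are not independent. None of the 21 detected members differed over 2-fold in mean TPM between them, against 8.1% of detected genes, and 1 differed over 1.5-fold, Psmb9, against 26.7%. All 21 were higher in the other quantification, as were 91.2% of detected genes, with a median log2 ratio of 0.34 beside 0.38. Counts did not always move with TPM: for Ifitm2 the other quantification gave 652.92 and 482.92 counts against 1182 and 879, a log2 ratio of −0.86, while its TPM there was 70.8 and 54.0. The counts of Bst2 (−0.50), Ifitm3 (−0.41) and B2m (−0.40) were also lower there. The excess of Ifitm2 over Ifitm3 in TPM was smaller in that quantification, 1.25-fold in each library. The sign of the ratio between the libraries was the same in both quantifications for 28 of the 29 members with at least 10 counts.

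Isoforms separated the members further. Of the 21 detected members, 18 have more than 1 annotated transcript, and B2m, Ifitm2 and Ifitm3 have 1 each. The transcript with the highest mean TPM was the same in both quantifications for 14 of the 18, and differed for Gbp3, H2-K1, Irf1 and Psmb9. In the first quantification a transcript annotated as other than protein-coding led in 3 members.

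Tap2 was the clearest case. Tap2-202, a retained-intron transcript, held 82.0% of the TPM of the gene in replicate 1 and 67.7% in replicate 2, on 449.31 and 340.73 counts. It also led in the other quantification, with 48.4% and 49.5%. Protein-coding transcripts of Tap2 made up 25.2% of its TPM on average in the first quantification and 51.0% in the other. The full coding transcript Tap2-201 was thus at only 0.62 and 0.69 TPM in the first quantification and 2.47 and 2.76 in the other. Counting coding transcripts alone, Tap2 was at 1.33 and 2.06 TPM and Tap1 at 2.55 and 1.96 in the first quantification, and Tap2 was at 5.58 and 3.84 TPM and Tap1 at 2.39 and 2.06 in the other. The Tap2 excess therefore held for all transcripts together, while for coding ones in the first quantification the order differed between the libraries. In the other, coding Tap2 exceeded coding Tap1, but Tap2-204 gave 3.12 and 1.08 TPM of it on only 8.37 and 2.82 counts. Tap2-201 alone there, at 2.47 and 2.76 TPM, was close to coding Tap1 in replicate 1.

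For H2-K1 the quantifications disagreed. The retained-intron transcript H2-K1-215 held 42.5% of the gene's TPM in replicate 1 and 37.3% in replicate 2 in the first, and was listed at 0 in the other. There the coding transcript H2-K1-205 led with 43.4% and 47.8%. Coding transcripts held 51.0% of H2-K1 in the first and 85.4% in the other, which puts coding H2-K1 RNA at 10.96 and 7.90 TPM in the first and at 21.8 and 16.5 in the other. Psmb9 showed the same kind of split at low depth: Psmb9-207, a target of nonsense-mediated decay, held 61.2% and 32.5% on 22.99 and 11.92 counts in the first and was listed at 0 in the other, where the coding Psmb9-204 led with 67.6% and 42.1%.

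In Gbp3 and Irf1 the competing transcripts were all coding. In the first quantification Gbp3-202 led by mean TPM, 1.42 against 1.39 for Gbp3-203, with 53.9% in replicate 1 but only 16.0% in replicate 2, where Gbp3-203 had 34.6% and Gbp3-205 33.5%. Gbp3-203 led in the other with 66.7% and 50.2%. Irf1-202 led in the first with 77.5% and 57.7%. In the other, Irf1-201 led in the mean with 43.9% and 39.7%, although in replicate 2 Irf1-202 was level with it at 40.2%. The leading transcripts of Gbp3 and Irf1 are therefore uncertain. Ifit2, Gbp7, Igtp and Bst2 had all their TPM in coding transcripts in both quantifications. Stat2 had mean shares of 50.5% and 49.0%, the lowest on which the methods were close. By library its share was 53.6% in replicate 1 and 47.5% in replicate 2 in the first, and 59.4% and 38.6% in the other.

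**Figure D4:**
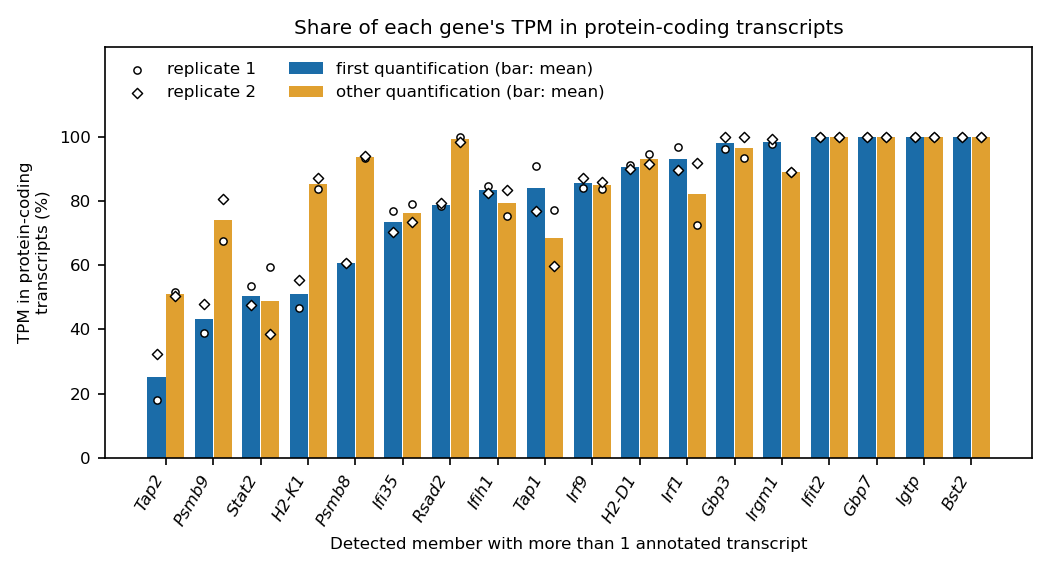
Share of each gene's TPM, in percent, held by protein-coding transcripts, for the 18 detected members with more than 1 annotated transcript, with bars for the mean of both libraries in each quantification and points for the libraries. Tap2 is lowest in the first quantification at 25.2%, Psmb9, H2-K1 and Psmb8 are much higher in the other, and 4 genes stand at 100% in both.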

How the data were processed

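The data are 2 total RNA libraries of heart, in 1 group. Per the file headers, the authors worked on mm10 with GENCODE M21. The authors' first tables hold expected counts and come from transcriptome alignments, and the other deposited tables hold estimated counts made directly from reads. Neither program names nor strand use in counting is given in the sources used here. These same deposited tables hold TPM, scaled over all rows of a file, and FPKM, used as an alternative. The reference is B6-based, and reads of CAST alleles that differ from it may have been lost.

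Rows that name no gene held 3.89 and 3 counts (1.0e-05% and 7.9e-06% of the totals) and were left out. Counts were rounded, scaled by TMM (edgeR 4.0.16, R 4.3.3), and 0.5 was added before log2 ratios. Intervals came from scipy 1.17.1. The ratio code was checked on simulated data. Genes counted as over 2-fold averaged 50 counts or more, with a ratio past 2-fold and an interval leaving out 1. Alternatives used DESeq2 1.42.0 size factors, total counts, spike-in totals, the other quantification, other thresholds and each library alone. Shared 31-base words were counted in M21 transcripts. Intervals and the floor of 3 counts treat reads as independent molecules, although no source used here names molecular identifiers.

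All 33 members are named. Full values went to members with the largest ratios, the 3 highest of each role, members under 1 TPM and members whose leading transcript differed. From other lists the 3 highest, those over 2-fold and ligands with a count are named, and Psmb5, Psmb10, Cd74, Ciita, H2-Eb1, H2-DMa, H2-DMb2, H2-Ob, Ifna16, Siglech and Xcr1 were added after their values were seen. Members and lists were chosen with earlier results of these data known. A result on 1 gene of the signalling list is not reported here.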

Additional observations from a re-analysis of the deposited data

How the results depend on the processing

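The median member level of 2.64 TPM was 3.26 in the other quantification and 2.14 in FPKM. It was 4.95 when TPM was rescaled without mitochondrial and structural RNAs. Under these settings 21 to 23 members were detected. With the detection threshold at 0.5 TPM 24 members were detected, and at 2 TPM 17. From each library alone the median was 2.56 to 2.72 TPM, 21 to 22 members were detected, 0 differed over 2-fold between the quantifications and 15 to 19 had the same leading transcript in both. The median log2 ratio of members, −0.16, was −0.27 with total counts and −0.23 with spike-in totals, where the median of all genes moved to −0.10 and −0.06. A change of scaling shifts every gene alike, so it cannot change the member median minus that of all genes. That difference was −0.17 in the first quantification and −0.19 in the other. At a minimum mean count of 10, 2 members were over 2-fold between the libraries, and 1 was over 1.5-fold between the quantifications. Each member's ratio stayed inside its own interval under all 5 alternatives tried for it, and no direction reversed among members with an interval leaving out 1. Depth limits the 13 members under 50 mean counts, whose intervals often span more than 2-fold. No paired analysis was possible because there was only 1 group.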

Other observations

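Class II genes that entered the comparison between the libraries had a median log2 ratio of −0.24 over 8 genes, 4 of them below 1, beside −0.17 for the class I members. H2-Aa, a class II chain, was at 73 counts in 1 library and 41 in the other, a log2 ratio of −0.68 (95% interval −1.28 to −0.12). These differences were not tested against each other.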
